A study of Mus musculus with 2 samples.

Results

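Cystatin C, a secreted inhibitor of cysteine proteases encoded by Cst3, was described together with 9 lysosomal proteases of microglia in sorted mouse brain cells. The proteases were Ctsa, Ctsb, Ctsc, Ctsd, Ctsh, Ctsl, Ctss and Ctsz, which encode cathepsins A, B, C, D, H, L, S and Z, and Lgmn, which encodes legumain. These 10 genes of the 32285 in the deposited gene table were chosen by name with the TAM and oil levels of these data already known. Their TAM and oil levels are therefore given as a description without p-values, and where a member passed the threshold of a fit over all genes, this is set beside the share of all genes that did and supports nothing. All mice were 12 weeks old and heterozygous for Cx3cr1CreERT2(Litt), an allele that puts a tamoxifen-inducible Cre recombinase under the fractalkine receptor gene of microglia. They received tamoxifen (TAM), an estrogen receptor ligand that activates CreERT2, or the oil vehicle, and the labels give 4 weeks of treatment. TAM and oil animals thus share the Cre allele, and animals without Cre were not analysed here. CD11b+ CD45+ Ly6G- CD206- cells from perfused brains were tagged with hashtag antibodies and pooled, 5 hashtags named TAM and 5 named oil. Nothing in the labels ties a hashtag to 1 mouse, so the spread between hashtags may be technical.

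Cathepsins are made as inactive precursors and cut to their active form in acidic endosomes and lysosomes. Cathepsins B, C, H, L, S and Z are cysteine proteases, cathepsin D is an aspartic protease, cathepsin A is a serine carboxypeptidase, and legumain is a cysteine protease that cuts after asparagine and helps to process several cathepsins. Cystatin C binds the active site of papain-like cathepsins and, at another surface, legumain. Microglia use this system to break down engulfed material and to trim antigen, and cystatin C is also known in the brain for binding amyloid-β.

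The pooled gene expression and hashtag libraries shared all 9975 barcodes, of which 8055 carried 1 hashtag, and 7534 of the 7903 cells kept were microglia-like. Each hashtag held 583 to 902 such cells and 2952694 to 4794604 unique molecular identifiers (UMIs, 1 per captured RNA molecule), with medians of 4904 to 5090.5 UMIs per cell. All 14 microglial markers were detected, and their summed level was 25370 to 26224 CPM (UMIs scaled to a common library total) in TAM hashtags and 25982 to 28336 CPM in oil hashtags. Summed neutrophil markers were at most 0.417 CPM in TAM hashtags and 0.738 CPM in oil hashtags. Macrophage markers were at 6.66 to 22.0 CPM in TAM hashtags and 3.60 to 13.9 CPM in oil hashtags, with Cd163 and Ms4a7 at 0. Some other lists were higher. Astrocyte markers summed to 289 to 321 CPM in TAM and 258 to 333 CPM in oil, with Gja1 at 0. Lymphocyte markers summed to 149 to 177 and 147 to 185 CPM, with Cd3e, Trbc2, Cd79a and Nkg7 at 0. Oligodendrocyte markers summed to 52.1 to 67.4 CPM in TAM and 55.9 to 66.8 CPM in oil. Vascular markers summed to 31.5 to 39.6 and 32.0 to 39.5 CPM, with Cldn5, Ly6c1 and Rgs5 at 0. Oil hashtags varied in immediate early RNA, such as Fos and Egr1, which are induced within minutes of a stimulus. The mean log2 CPM of that list was 4.01 to 5.07 in TAM hashtags, and 6.99, 6.33, 6.14, 5.61 and 5.13 in Oil1 to Oil5. Xist RNA was below 100 CPM in TAM1, TAM2, Oil1 and Oil2, called hashtags without Xist RNA here, and above it in the other 6 hashtags.

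Bases before RefSeq starts are shown because elements common to lysosomal or myeloid genes are known. Whether such elements have a part in the members' levels was not tested. RefSeq promoter windows (build GRCm38.p6) matched 8 members with 10 windows of 250 bases before a start, with 2 windows each for Ctsa and Lgmn. CACGTG is the core of the element bound by TFEB, a regulator of lysosomal genes, TCACGTGA is its longer palindrome and contains it, and GAGGAAGT is a core bound by PU.1, the master factor of myeloid cells. Both strands were searched. CACGTG lay in 4 of the 10 member windows and in 6.02% of all 32851 windows. TCACGTGA lay in 2 of 10 and in 0.785% of all, and GAGGAAGT in 1 of 10 and in 2.44% of all. Capitals mark the match in 30-base stretches on the gene's strand.
Ctsd, nearer match: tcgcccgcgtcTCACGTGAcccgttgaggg
Ctsd, farther match: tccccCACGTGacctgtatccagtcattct
Ctsa: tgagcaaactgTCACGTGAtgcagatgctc
Lgmn: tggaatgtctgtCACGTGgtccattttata
Ctsl: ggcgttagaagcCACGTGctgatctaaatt
Ctsc: gtcactaactaACTTCCTCaggccacctcg
The Ctsd stretches are at chr7:142387908-142387937 and chr7:142388048-142388077 on the minus strand, and their matches begin 99 and 245 bases before the start. The Ctsa stretch is at chr2:164833749-164833778 on the plus strand, with the match 13 bases before the start. Those of Lgmn (chr12:102439124-102439153) and Ctsl (chr13:64370739-64370768) are on the minus strand, 49 and 236 bases before the start. The Ctsc match, 151 bases before the start at chr7:88277923-88277952, is read on the opposite strand. Before a RefSeq start does not mean outside the gene: by GENCODE M21 the stretches of Ctsa, Lgmn and Ctsl and the nearer one of Ctsd lie within the annotated genes. Exons hold 211 of the 250 window bases of Ctsd, 164 in this window of Ctsa, 48 of Ctsl and 0 in this window of Lgmn.

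Windows of Cst3, Ctss and Ctsz held no exact match to these letters. Shorter or varied forms of GAGGAAGT were not searched, and both stretches below hold GAGGAA. Cst3 and Ctss are shown for contrast because they were the pair of members most alike across cells. The Cst3 stretch is the longest run of its window outside exons of GENCODE M21 transcripts, which hold 125 of the 250 bases.
Cst3: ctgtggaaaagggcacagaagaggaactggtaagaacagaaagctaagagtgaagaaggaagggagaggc
Ctss: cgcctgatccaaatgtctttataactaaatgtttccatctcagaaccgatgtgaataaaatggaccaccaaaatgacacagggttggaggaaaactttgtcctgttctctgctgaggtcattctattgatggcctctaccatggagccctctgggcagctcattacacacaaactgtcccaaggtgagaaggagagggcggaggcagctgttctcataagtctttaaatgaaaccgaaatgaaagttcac
They cover chr2:148875693-148875762 on the minus strand and chr3:95526536-95526785 on the plus strand.

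Cst3 gave 3.48% of all UMIs of microglia-like cells, and the 9 proteases together gave 1.49%. Every microglia-like cell held a Cst3 UMI, with a median of 163. The gene lies on chromosome 2 (148871722 to 148875692, minus strand, GENCODE M21 on GRCm38) and overlaps no other annotated gene. Its level, in CPM after TMM scaling, was 33080, 32445, 30819, 30079 and 30586 CPM in TAM1 to TAM5. In Oil1 to Oil5 it was 34875, 36413, 38352, 39466 and 41622 CPM. All 5 TAM hashtags lay below all 5 oil hashtags, and the oil hashtags were spread more widely.

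The mean level of Cst3 was 31402 ± 1290 CPM in TAM hashtags and 38146 ± 2625 CPM in oil hashtags (SD, n = 5 each), 17.7% lower in TAM (log2 fold -0.28 ± 0.04, SE). In the edgeR fit 500 of 11171 genes passed an adjusted p of 0.05, which is 4.48%, 182 higher and 318 lower, and Cst3 was the 1 member among them. Scaling by library size alone turned this split to 351 higher and 248 lower, with Cst3 at -0.25. TAM hashtags lay wholly below oil hashtags for 2 of 10 members, Cst3 and Lgmn, and for 3.13% of all genes. Since the members were chosen from this contrast, nothing is read from these counts. Without Oil1, Oil2 and Oil3 the log2 fold of Cst3 was -0.36, and a fit that took the immediate early level as covariate also gave -0.36.

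**Figure D1:**
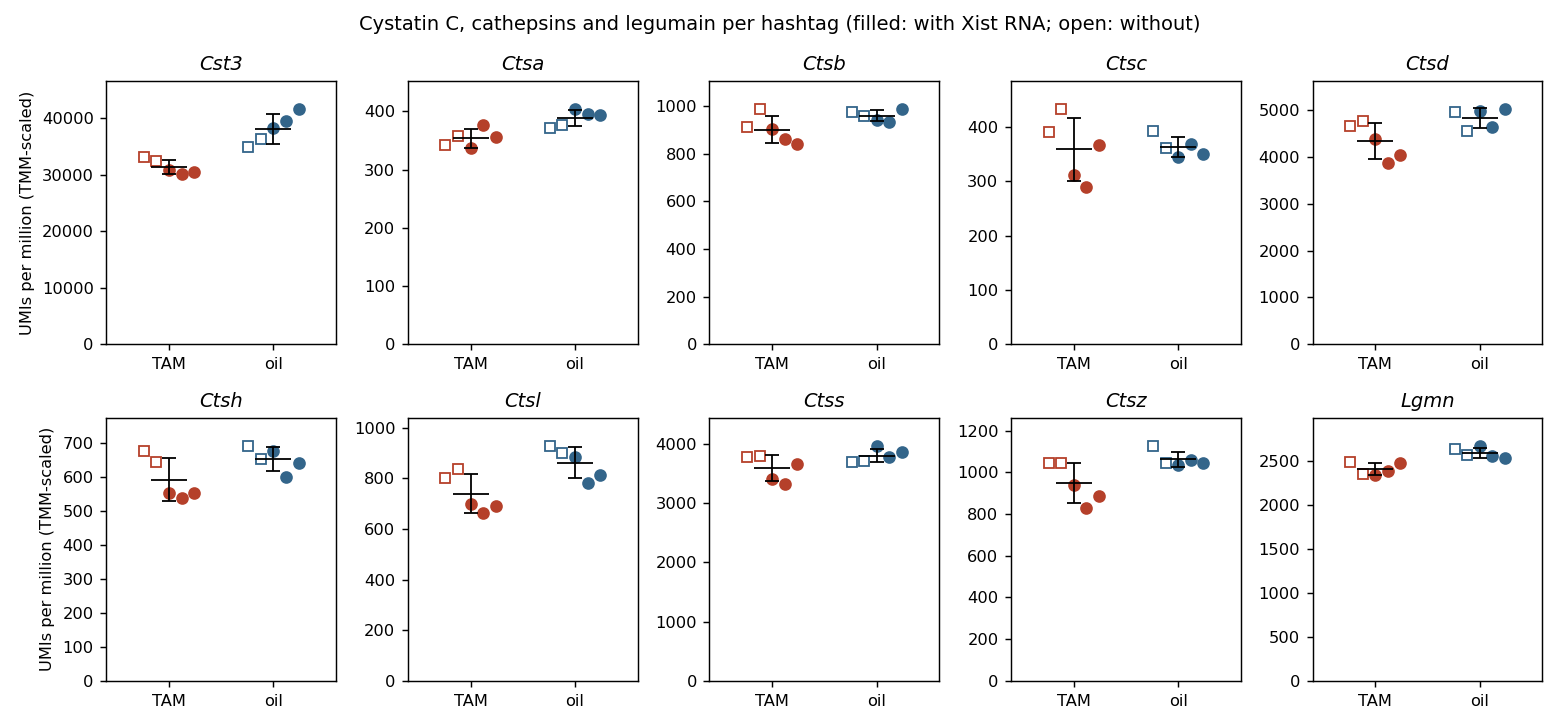
Level of each member per hashtag in CPM after TMM scaling, TAM on the left and oil on the right, with the mean and SD of 5 hashtags in black. Filled circles are hashtags with Xist RNA and open squares those without. Cst3 is at 30079 to 33080 CPM in TAM and 34875 to 41622 CPM in oil, and the proteases other than Lgmn overlap between treatments.

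Cst3 was lower in TAM hashtags both with and without Xist RNA. Without it, Cst3 was at 33080 and 32445 CPM in TAM1 and TAM2 and at 34875 and 36413 CPM in Oil1 and Oil2, a log2 fold of -0.12. With it, Cst3 was at 30079 to 30819 CPM in TAM3 to TAM5 and at 38352 to 41622 CPM in Oil3 to Oil5, a log2 fold of -0.38. The difference of these folds was 0.26 in an interaction fit, and no member passed the adjusted threshold there, against 0.0179% of all genes. Oil1 and Oil2, without Xist RNA, also had the most immediate early RNA, 6.99 and 6.33 on the mean log2 CPM scale. TAM1 and TAM2, also without Xist RNA, had 5.01 and 5.07, against 4.01 to 4.43 in TAM3 to TAM5. These features therefore cannot be told apart in either treatment.

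Among the cysteine cathepsins, Ctsl, the gene of cathepsin L, an endopeptidase of lysosomes, had the lowest fold. It was at 801, 838, 699, 661 and 691 CPM in TAM1 to TAM5 and at 928, 900, 883, 783 and 813 CPM in Oil1 to Oil5. TAM1 and TAM2 lay within the oil range, and the log2 fold was -0.22 ± 0.06 (SE). Ctsz, which encodes a carboxypeptidase, averaged 948 ± 96.3 CPM in TAM hashtags and 1063 ± 37.1 CPM in oil hashtags (SD, n = 5 each), with a log2 fold of -0.16 ± 0.06. Ctsh, an aminopeptidase gene, averaged 592 ± 63.7 CPM in TAM and 651 ± 34.9 CPM in oil (log2 fold -0.14 ± 0.06). In both genes TAM1 and TAM2 reached the oil range and TAM3, TAM4 and TAM5 lay below it.

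Ctsb, whose product cuts both inside proteins and at their ends, averaged 901 ± 56.5 CPM in TAM hashtags and 959 ± 22.5 CPM in oil hashtags, with a log2 fold of -0.09 ± 0.04 (SD and SE, n = 5 each). Ctss, the gene of cathepsin S, which trims the invariant chain of MHC class II, averaged 3597 ± 214 CPM in TAM and 3806 ± 113 CPM in oil (log2 fold -0.08 ± 0.04). For Ctss, TAM1 and TAM2 at 3783 and 3793 CPM were above Oil1 and Oil2 at 3700 and 3713 CPM. Ctsc, an activator of granule serine proteases, was the member nearest to no difference. It had 391, 432, 312, 290 and 367 CPM in TAM1 to TAM5 and 392, 360, 344, 369 and 350 CPM in Oil1 to Oil5, a log2 fold of -0.02 ± 0.08, and its TAM hashtags covered the whole oil range.

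Legumain is a cysteine protease of another family than the cathepsins, and its gene, Lgmn, had 2493, 2357, 2346, 2387 and 2483 CPM in TAM1 to TAM5. In Oil1 to Oil5 it had 2637, 2574, 2673, 2561 and 2537 CPM. The treatments did not overlap, but the gap was narrow, and the log2 fold was -0.11 ± 0.03 (SE). Ctsd averaged 4344 ± 385 CPM in TAM hashtags and 4834 ± 215 CPM in oil hashtags (SD, n = 5 each; log2 fold -0.15 ± 0.05). Ctsa, whose product also shields β-galactosidase and neuraminidase in a complex, averaged 354 ± 15.8 CPM in TAM and 389 ± 13.8 CPM in oil (log2 fold -0.14 ± 0.04). The fitted folds of all 10 members were below 0, with a median of -0.14 against -0.00017 over all genes tested. Ctsd, Ctsl and Ctss overlap another annotated gene on the same strand, and Ctsa, Ctsb, Ctsc and Ctsz only on the opposite strand. The counting rule for reads of overlapping genes is not given in the sources used here. Some reads of these members, chiefly those with a same-strand overlap, could therefore come from the other gene.

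The share of UMIs from the 2804 genes that span over 100 kb moved with treatment. It was 22.65% to 23.34% in TAM hashtags and 21.62% to 22.32% in oil hashtags, without overlap, while the members span 3971 to 45730 bases. With this share as a covariate, chosen after values had been seen, the log2 fold of Cst3 was -0.22 and it no longer passed the threshold. Only 3 of 10 members were then below 0, Cst3, Ctsa and Lgmn, and the median of the members was 0.13. With the immediate early level as covariate 6 of 10 members were below 0 and their median was -0.03. The part of either measure in the members' folds cannot be told apart from treatment, because the treatments do not overlap in either.

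**Figure D2:**
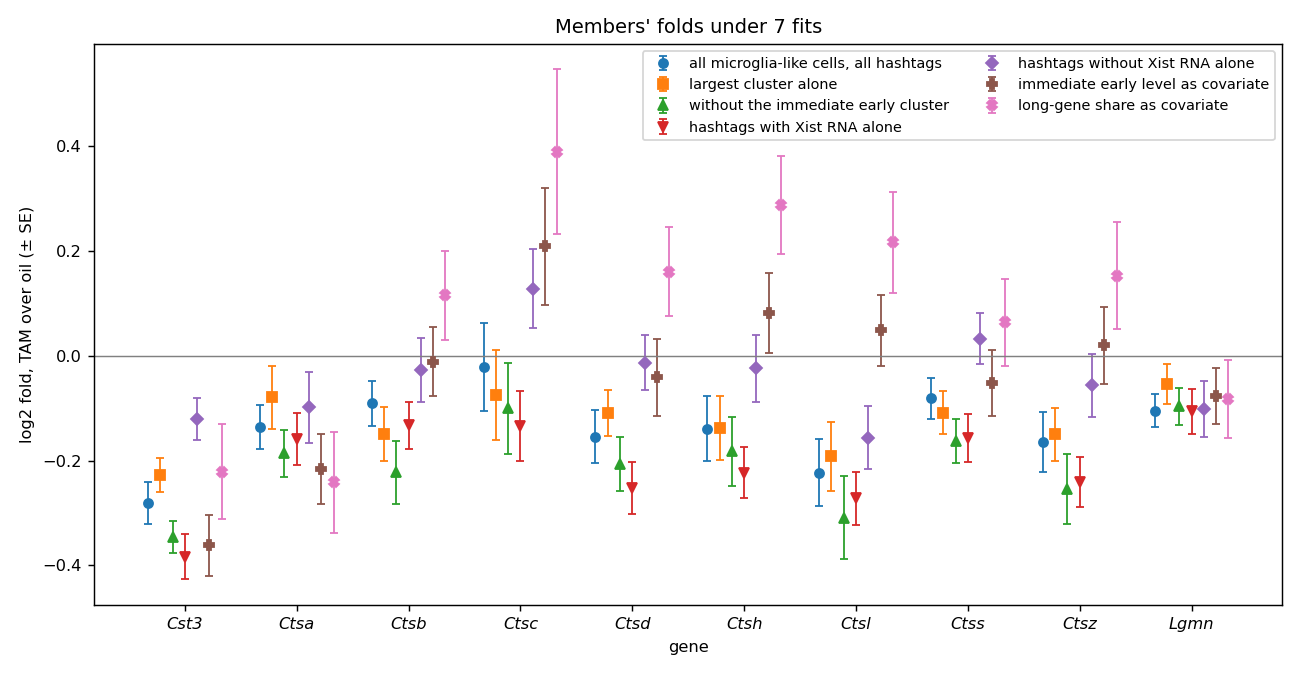
Log2 fold of each member, TAM over oil, with its SE, under 7 fits: all cells and hashtags, the largest cluster, cells without the immediate early cluster, hashtags with or without Xist RNA, and 2 covariates. Cst3 stays below 0 in all 7, between -0.38 and -0.12, whereas Ctsc, Ctsh and Ctsl are above 0 with the long-gene share as covariate.

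Per cell, Cst3 was lower in TAM hashtags at the low and the high end of its distribution as well as in the middle. Cells were thinned to 3000 UMIs, which left 7226 cells and left out 163 TAM and 145 oil cells that were shallower. The median was 97, 92.5, 88, 88.5 and 89 Cst3 UMIs in TAM1 to TAM5 and 97, 103, 105, 112 and 118 UMIs in Oil1 to Oil5. TAM1 and Oil1 thus met, and the other oil hashtags were above all TAM hashtags. The 10th percentile was 51.0 ± 2.08 UMIs in TAM and 62.6 ± 3.73 UMIs in oil, and the 90th percentile was 150 ± 4.47 UMIs in TAM and 173 ± 10.1 UMIs in oil (SD, n = 5 each). The variance over the mean was 17.1 ± 1.09 in TAM hashtags and 17.7 ± 1.36 in oil hashtags.

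Cst3 UMIs were set against the summed UMIs of the 9 proteases, a ratio within a library that no scaling enters. The 9 gave 1.49% of all UMIs, of which Ctsd gave 0.459%. Ctsd and Ctsa do not encode cysteine proteases, so the ratio is not one of cystatin C to its targets. A ratio without them was not computed. The ratio over the 9 was 2.19, 2.13, 2.22, 2.29 and 2.20 in TAM1 to TAM5. In Oil1 to Oil5 it was 2.21, 2.41, 2.41, 2.61 and 2.66. Oil1 lay inside the TAM range, and the other 4 oil hashtags were above every TAM hashtag. The mean was 2.21 ± 0.057 in TAM and 2.46 ± 0.180 in oil (SD, n = 5 each), a log2 difference of -0.15, with a spread within treatments of 0.080 on that scale. The summed proteases ranged from 1.35% to 1.53% of UMIs in TAM hashtags and from 1.49% to 1.57% in oil hashtags, while Cst3 ranged from 3.09% to 3.32% in TAM and from 3.46% to 4.12% in oil.

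**Figure D3:**
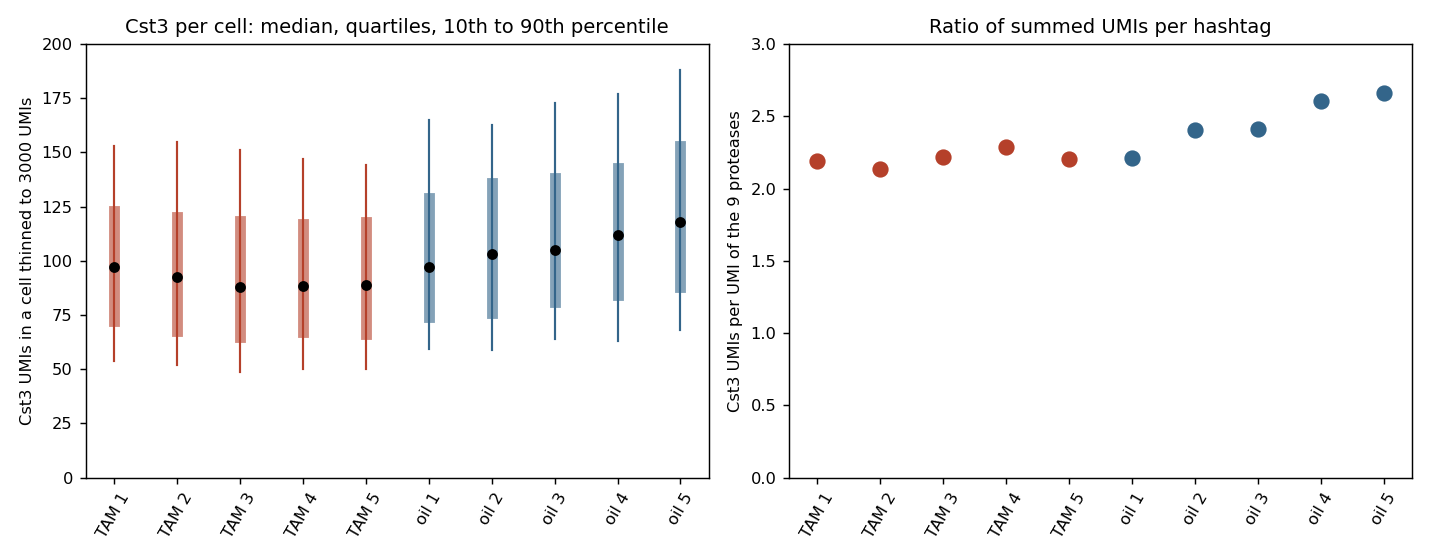
Left, Cst3 UMIs per cell thinned to 3000 UMIs for each hashtag, with the median as a dot, the quartiles as a thick bar and the 10th to 90th percentile as a line. Right, summed Cst3 UMIs per summed UMI of the 9 proteases. TAM medians are 88 to 97 UMIs and oil medians 97 to 118 UMIs, and TAM ratios are 2.13 to 2.29 against oil ratios of 2.21 to 2.66.

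Levels also differed between cell states, which are described without a test because clusters were built from the same cells, with Cst3 and Ctsb among the genes used. One microglia-like cluster of 199 cells, 127 TAM and 72 oil, was led by Spp1, Lgals3 and Lpl, genes known from activated, lipid-handling microglia. Relative to the other microglia-like cells of the same hashtag, Ctsb was 3.45-fold (2.85 to 4.05 over 10 hashtags) and Ctsz 2.74-fold (2.51 to 3.14) in this cluster. Ctsd was 1.91-fold, Ctsl 1.63-fold, Ctsa 1.62-fold and Ctsc 1.61-fold, each higher in 10 of 10 hashtags. Cst3 was 1.02-fold (0.952 to 1.13), and Lgmn, Ctsh and Ctss were 0.958-fold, 0.937-fold and 1.10-fold. The summed ratio of Cst3 to protease UMIs was accordingly 1.49 in this cluster and 2.28 in the largest cluster. With the members left out of the clustering genes the Ctsb fold over all other microglia-like cells was 3.38, against 3.39 with them.

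Other microglia-like states had other patterns. In the interferon-response cluster, 143 cells led by Ifit3 and Ifit2, Ctss was 1.23-fold (1.09 to 1.50) and higher in 8 of 8 hashtags with at least 10 such cells, while Cst3 was 1.03-fold. Among 120 dividing cells, led by Mki67 and Top2a and 106 of them from TAM, Ctsd was 0.623-fold, Ctsh 0.685-fold and Ctss 0.744-fold in the 3 TAM hashtags with enough cells, and Cst3 was 0.874-fold. In the second largest cluster Cst3 was 1.34-fold and higher in 10 of 10 hashtags. Its median depth was 4173 UMIs per cell and its share of UMIs from long genes 18.8%, against 5335 UMIs and 24.3% in the largest cluster, where Cst3 was 0.831-fold. Fos and Egr1 led a cluster of 1343 cells, 83 TAM and 1260 oil, in which Cst3 was 0.897-fold and lower in 7 of 7 hashtags.

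**Figure D4:**
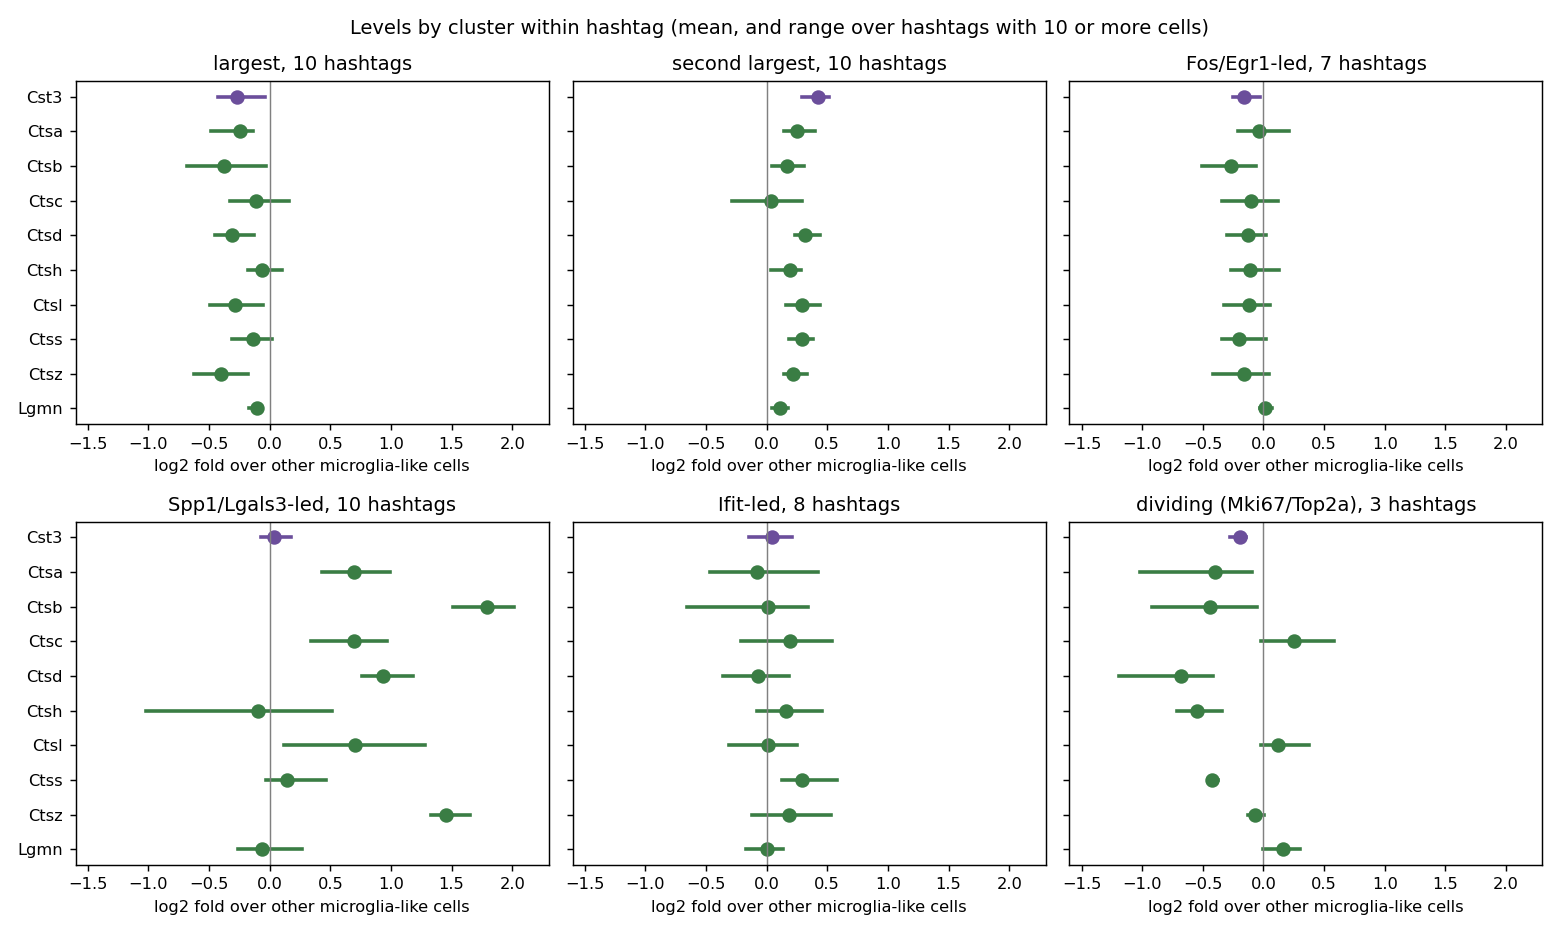
Log2 fold of each member in 6 clusters over the other microglia-like cells of the same hashtag. Dots are means and lines run from the lowest to the highest hashtag with 10 or more cells of the cluster. In the cluster led by Spp1 and Lgals3, Ctsb and Ctsz lie far right of 0 and Cst3 stays near 0.

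Within the 6 microglia-like clusters the summed level of Cst3 was lower in TAM cells, by little in some of them. In the largest cluster, with 2446 TAM and 1099 oil cells, it was at 28870 to 30505 CPM of cluster UMIs in TAM hashtags and 31028 to 36213 CPM in oil hashtags, without overlap, and the edgeR fold was -0.23 ± 0.03 (log2, SE). Only 18 of 10122 genes passed in that cluster, 0.178%, and 1 of them was a member, Cst3. The other 9 members there had folds of -0.19 to -0.05. Over summed UMIs the log2 difference of Cst3 was -0.21 in the second largest cluster and -0.27 in the cluster led by Spp1. It was -0.13 among dividing cells, -0.09 in the interferon cluster and -0.04 in the immediate early cluster. The dividing cells include only 14 oil cells, and no oil hashtag had 10 of them. The immediate early cluster has 83 TAM cells, 55 of them in TAM1. By means of its 2 TAM and 5 oil hashtags with at least 10 cells the difference was -0.12. The TAM and oil hashtags overlapped in the second largest, the interferon and the immediate early cluster. In an unnamed cluster of 317 cells the summed level of Cst3 was higher in TAM cells, with a log2 difference of 0.52. Leaving out the immediate early cluster gave a log2 fold of -0.35 for Cst3 over the remaining cells.

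A cluster of 52 cells, 38 TAM and 14 oil, had H2-Eb1 and H2-Aa, genes of MHC class II, in the lead and stayed unnamed because a median of only 29.8% of its cells held a given microglial marker. These cells carried 1265 Cst3 UMIs (6024 CPM), and Ctsl gave 10 UMIs and Ctsd 64 UMIs (47.6 and 305 CPM). Lgmn was at 457 CPM. Relative to the largest cluster Cst3 was 0.194-fold, Lgmn 0.190-fold, Ctsd 0.0746-fold, Ctsl 0.0681-fold and Ctsz 0.526-fold, while Ctsa was 0.949-fold, Ctsc 1.15-fold, Ctsh 0.873-fold, Ctsb 1.31-fold and Ctss 0.691-fold. A Ctsl UMI was found in 15.4% of these cells and 94.5% of microglia-like cells, at median depths of 3684.5 and 5001 UMIs. The part of RNA from outside the cell in such counts was not tested.

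Across single cells, Cst3 varied most like Ctss among the members. With depth regressed out, the median Pearson r over 10 hashtags was 0.46 (0.39 to 0.56) for Ctss, 0.33 for Ctsd, 0.26 for Ctsl and 0.16 for Ctsb, over 583 to 902 cells each. It was -0.02 for Ctsc and 0.10 or less for Lgmn and Ctsh. Values were 0.41 for Ctss in thinned cells and 0.40 in the largest cluster alone. Among the proteases r was 0.33 for Ctsb and Ctsd, 0.28 for Ctsd and Ctsz and 0.26 for Ctsb and Ctsz. All cells come from 1 gene expression library and share its ambient RNA. Few UMIs per cell, such as the median of 2 for Ctsa and Ctsc, can lower a correlation, and by how much was not tested. With Cst3, r was 0.15 for Ctsa and 0.10 for Lgmn, which had a median of 12 UMIs.

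**Figure D5:**
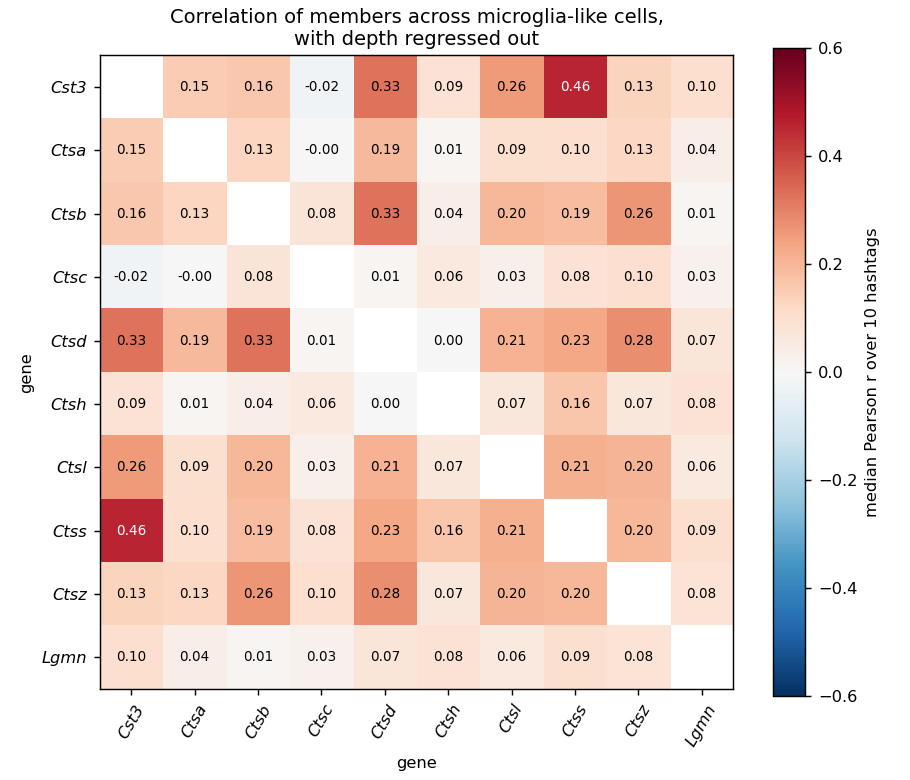
Median over 10 hashtags of the Pearson correlation of each pair of members across microglia-like cells, with depth regressed out. Red is positive. Cst3 with Ctss is the highest at 0.46, and the row of Ctsc is near 0.

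Among 4087 other genes found in at least 20% of cells, the 5 nearest to Cst3 were C1qb (median r = 0.61), Itm2b (0.55), C1qa (0.50), Tyrobp (0.49) and C1qc (0.46). C1qa, C1qb and C1qc encode the chains of complement C1q, Itm2b a membrane protein that is cut to release small peptides, and Tyrobp a signalling adaptor of myeloid receptors. These 5 genes span 2.89 to 23.1 kb. The 5 genes at the other end, Tanc2, Elmo1, Ssh2, Dock4 and Slc8a1, had r of -0.27 to -0.23 and span 244 to 518 kb. Whether gene length has a part in this order was not tested. Over the 10 hashtags with treatment means taken off, the nearest of 3855 genes were Tmem147 (r = 0.95), Ncor1 (0.95), Lrpap1 (0.94), Atp5f1 (0.92) and Cmss1 (0.91), and Ctss had 0.62. These are values from few hashtags of 1 pool and carry no test.

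The rest of the lysosomal system was read from lists of genes that are no members. These lists were also chosen with earlier results of these data known, so their calls are a description. Prcp, a lysosomal carboxypeptidase that removes residues after proline, fell to 167 to 174 CPM in TAM hashtags, against 183 to 213 CPM in oil hashtags (log2 fold -0.19 ± 0.05, edgeR adjusted p = 0.0354). The treatments did not overlap. Of all genes tested, 4.48% passed in either direction and 3.13% had all TAM hashtags below all oil hashtags. Prcp did not pass in 15 of 27 alternatives, among them library size scaling (edgeR adjusted p = 0.0802).

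Among the 8 other cathepsins and lysosomal peptidases tested 0 rose and 1, Prcp, fell, with a median log2 fold of -0.04. Of 24 genes of lysosomal membrane, sorting and antigen processing none passed the edgeR test, and the median was -0.07. Of these, 9 had an unadjusted p below 0.05, as had 2166 of all 11171 genes in that fit. Of 8 other protease inhibitors none passed, with 1 at an unadjusted p below 0.05. The cystatin family held 2 tested genes besides Cst3, Cstb and Cst7, with folds of -0.15 and 0.03, and neither passed or had an unadjusted p below 0.05. Of 22 immediate early genes 0 rose and 17 fell in the edgeR test, with a median log2 fold of -1.49, and Egr1 was at 3.74 to 48.3 CPM in TAM hashtags and 68.1 to 362 CPM in oil hashtags. Without Oil1, Oil2 and Oil3 together none of the 22 passed in edgeR, with a median of -0.71. There 14 of the 22 had an unadjusted p below 0.05, against 1312 of all 11599 genes. In the largest cluster alone 2 of 19 fell. With the long-gene share as covariate none passed and none had an unadjusted p below 0.05, against 961 of all 11171 genes. With hashtag position 1 rose and 0 fell.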

How the data were processed

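The deposited values are raw UMI counts of genes and hashtags in 1 matrix. Per the file headers the authors used Cell Ranger 7.0.0, with mm10 as build per the submitters' processing notes. Annotation, barcode calling and use of intronic reads were not given in the sources used here. Hashtags were assigned with HTODemux (Seurat 5.3.0, quantile 0.99). Barcodes with several hashtags (17.4%) or none (1.83%) were left out, about 196 doublets of equal hashtags remain by estimate, and no other doublet caller was run. Cells needed 500 genes, 1000 UMIs and at most 10% mitochondrial UMIs. Clusters (scanpy 1.11.5, 2000 variable genes, 30 components, 15 neighbours, Leiden resolution 0.5) were named microglia-like where at least 3 markers were each in 25% of cells and the markers' median share was at least 50%, unless their median depth was under the overall median divided by 3 with no marker among the leading genes. Counts summed per hashtag were tested with edgeR 4.0.16 (quasi-likelihood F test, TMM, filterByExpr, Benjamini-Hochberg adjustment, checked on simulated data), with DESeq2 1.42.0 as an alternative. The SE is the absolute log2 fold over the square root of F. Intervals were not computed, since hashtags were the replicates. Members and lists were chosen with earlier results of these data known. The rule for named genes covers all members, listed genes past the threshold (at most 6 per list), and the genes most and least like Cst3. The calls of the lysosomal hydrolase list are not reported here and of the immediate early genes Egr1 alone is given with values.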

Additional observations from a re-analysis of the deposited data

Results flagged for a closer look

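For Ctsz, 1 oil hashtag lay apart from the others. Oil1 was at 1127 CPM and the other 4 oil hashtags at 1034 to 1060 CPM, while TAM hashtags were at 829 to 1047 CPM. The gap from Oil1 to its neighbour was larger than Dixon's test allows for 5 values. Of 22 groups of 5 hashtags examined, 10 members and the ratio in each treatment, this was the 1 that passed, and chance gives about 1 in 20. Oil1 also had the highest immediate early level, and the part of that in Ctsz was not tested.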

How the results depend on the processing

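Cst3 stayed below 0 in all 27 alternatives, with log2 folds of -0.36 without Oil1 to Oil3, -0.38 and -0.12 within hashtags with and without Xist RNA, and -0.31 to -0.25 with 1 hashtag left out. Lgmn and Ctsa also stayed below 0 in all 27, while Ctsc was below 0 in 19. The genes past the threshold, 500 in all microglia-like cells, were 837 without a filter on low counts, 7 without Oil1 to Oil3, 66 with the immediate early level, 37 with hashtag position, 868 with Xist class and 23 with the long-gene share as covariate, 123 in hashtags without Xist RNA, 18 in the largest cluster, 496 with DESeq2 and 258 to 656 with 1 hashtag left out; 401, 322, 262, 471 and 498 passed without Oil1 to Oil5, and 656, 503, 285, 258 and 259 without TAM1 to TAM5. The 18 of the largest cluster were 177 without the filter, 37 with the immediate early covariate, 41 with DESeq2 and 1 to 90 with 1 hashtag left out. The 2 listed pathway genes were 1 with library size scaling or the long-gene share, 7 without the filter, 8 with Xist class, in hashtags with Xist RNA or without the immediate early cluster, 5 with stricter hashtags or DESeq2, 0 without Oil1 to Oil3, with the immediate early or position covariate, in hashtags without Xist RNA or in the largest cluster, and 1 to 6 with 1 hashtag left out. Members past the threshold ranged from 0 to 7. The 7 passed without the immediate early cluster, where 436 of 10973 genes passed. None passed with the long-gene share, where 23 of 11171 genes did, or in hashtags without Xist RNA, where 123 of 11066 did. Since the members were chosen from this contrast, nothing is read from these counts. Cst3 did not pass with the long-gene share or in hashtags without Xist RNA, and the cause was not tested. The ratio, the Cst3 and Ctss correlation and the Ctsb fold of the Spp1 cluster had fewer alternatives, 14, 2 and 3. In these they moved by less than 1 SD. Leaving out Oil1 to Oil3 together, the Xist classes and the covariates were not among them, so stability there was not tested.

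The labels do not say whether hashtag numbers pair TAM with oil. Correlations of deviations between equal numbers were 0.294, 0.109, 0.0188, 0.0960 and 0.0868, and only TAM1 was nearest to its own number. Equal numbers did share the Xist class: 1 and 2 were without Xist RNA in both treatments, and 3 to 5 with it. A replicate block gave 871 genes, 136 in the largest cluster, 8 listed pathway genes and 6 members, with Cst3 at -0.28. Xist class as covariate gave nearly the same counts, 868 genes and 6 members. With 5 hashtags a treatment and 1 pool, treatment, hashtag position, immediate early level and long-gene share move together. Genes with a median of 2 UMIs per cell limit what per-cell values can show.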

Other observations

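A cluster of 317 cells with a median of 1502 UMIs stayed unnamed, and there Cst3 ran the other way. It was at 12067 CPM in 179 TAM cells and 8391 CPM in 138 oil cells, a log2 difference of 0.52 over summed UMIs, and the hashtag means were 11559 ± 3999 CPM in TAM and 7322 ± 4130 CPM in oil (SD, n = 5 each), so the treatments differed by about the spread between hashtags. In these cells 35.8% of UMIs came from genes spanning over 100 kb, and the ratio of Cst3 to protease UMIs was 1.01. The difference was chosen after values were seen and was not tested.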
